A study of Mus musculus with 48 samples.

Results

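The EGF-family ligands examined here are 7 genes, *Areg*, *Ereg*, *Hbegf*, *Tgfa*, *Nrg1*, *Epgn* and *Btc*, chosen by symbol and matched to the Ensembl identifiers of the count tables, which list 50600 genes. They were measured in mPDAC, a single mouse pancreatic ductal adenocarcinoma cell line of FVB/N x C57BL6 background, for which the labels give an age of 8-week-old. One group of cultures received N6L, a pseudopeptide that antagonizes nucleolin, at 50 µM for 48 h, and the other was not treated (labelled Control). From each of 3 cultures per treatment (numbered 1, 2 and 4 without N6L and 1, 2 and 3 with it), poly(A)+ RNA was sequenced from the cytoplasm and from pooled polysomes of the same lysate, and all cells were exposed to emetine, which blocks ribosome movement, before lysis. This gave 12 libraries in 4 groups of 3, and 6 of the 7 ligands passed the filter on low counts that left 13889 genes for testing.

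The ligands of this family are made as membrane-anchored precursors. Metalloproteases, above all ADAM17 and ADAM10, release them from the cell surface, and the freed ligands bind receptors of the ErbB family on the same cell or on neighbours. Amphiregulin (*Areg*), TGF-alpha (*Tgfa*) and epigen (*Epgn*) bind EGFR, whereas HB-EGF (*Hbegf*), epiregulin (*Ereg*) and betacellulin (*Btc*) bind both EGFR and ErbB4, and neuregulin 1 (*Nrg1*) binds ErbB3 and ErbB4. Receptor dimers then signal through adaptors to RAS, RAF, MEK and ERK. In the pancreas, EGFR ligands are known for their part in the change of acinar cells into duct-like cells and in early ductal neoplasia.

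Each library held 19519911 to 44972333 counts, and the 4 technical replicates of each library agreed within sampling noise and were summed. The libraries carried the duct keratins *Krt8*, *Krt18* and *Krt19* at 1108 to 4503 CPM (counts relative to the scaled total of the library) and the epithelial cadherin *Cdh1* at 61.0 to 147.6 CPM. Another epithelial marker, *Epcam*, was nearly absent, with 1 to 10 counts per library. Summed over their lists, 7 fibroblast markers reached at most 1.22 CPM, 6 leukocyte markers 2.23 CPM, 4 endothelial markers 1.15 CPM and 4 endocrine markers 0.0531 CPM. The 5 acinar markers summed to 27.6 to 82.8 CPM, almost all of it *Cela1*, with *Cpa1*, *Amy2a5* and *Ptf1a* at 0. The spread over genes of the log2 polysome-to-cytoplasm ratio was 0.477 to 0.532 (SD) in 4 cultures, 0.687 in N6L culture 2 and 1.04 in N6L culture 3, so the last stood apart.

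The gene for amphiregulin sits with 3 other ligands on chromosome 5. In GRCm38 (GENCODE vM21), *Epgn* (91027464 to 91035215, plus strand), *Ereg* (91074622 to 91093646, plus strand), *Areg* (91139599 to 91148432, plus strand) and *Btc* (91357261 to 91402994, minus strand) span 375531 bases. *Areg* lies 45952 bases beyond *Ereg* and 208828 bases from *Btc*. *Tgfa* is on chromosome 6 and *Nrg1* on chromosome 8. The gene *Gm19610* overlaps *Ereg* on the opposite strand at 2.12 to 4.09 CPM. The genes that overlap *Tgfa* and *Nrg1* had 0 counts (*Gm43917*, *Gm22140*) or at most 0.818 CPM (*Gm26578*).

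The *Areg* mRNA is the shortest of the 7 (1215 bases in its representative transcript) and its 3' UTR of 253 bases holds 4 copies of AUUUA, the core of AU-rich elements, which are known to mark short-lived mRNAs. That is 15.8 copies per kb, a density above that of 99.7% of the 11998 coding genes tested. The other ligands are less dense. *Ereg* has 9 copies in 3501 bases (2.57 per kb), *Hbegf*, *Tgfa* and *Btc* have 4 each in 1456, 3764 and 2069 bases, *Nrg1* has 1 in 272 bases and *Epgn* has 0 in 1242 bases. The median over tested coding genes was 1 copy (1.25 per kb), 66.8% of them had at least 1 and 26.9% had at least 4. The 30-base stretch of the 3' UTR with the most copies is given in DNA letters, 5′ to 3′ on the mRNA strand, for the 3 ligands of the chromosome 5 cluster that hold any, to set the packed element of *Areg* beside the scattered copies of its neighbours. Capitals mark ATTTA, and copies may share a base.
Areg (GRCm38 chr5:91148369-91148398, plus strand, exon 6 of 6): ataATTTATTTAatATTTAagtgttATTTA
Ereg (GRCm38 chr5:91090919-91090948, plus strand, exon 5 of 5): gagtATTTAtttttatagggaATTTActga
Btc (GRCm38 chr5:91359199-91359228, minus strand, exon 6 of 6): gtttaaatattgtATTTActttttttattt

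All 4 copies of the *Areg* 3' UTR fell within that stretch, whereas the stretches of *Ereg* and *Btc* held 2 of 9 and 1 of 4. RefSeq promoters (GRCm38.p6, windows of equal length around each start) were used for *Areg*, *Btc*, *Epgn* and *Tgfa*. The *Areg* promoter held the cAMP-response motif TGACGTCA 61 bases before the start, found in 1.79% of 32851 promoters. It also held TATAAA 31 bases before the start (plus strand only, in 8.32% of promoters). The GC box GGGCGG (both strands, in 35.7%) lay 52 bases before and 37 bases after the start. *Tgfa* held 2 GC boxes as well, 126 and 15 bases before its start, and *Epgn* held TATAAA 86 bases before its own. None of the other 3 held TGACGTCA, and none of the 4 held the AP-1 motif TGANTCA (both strands, in 7.81%). The *Areg* stretch around the first motif, in capitals, is the following.
Areg promoter (GRCm38.p6 chr5:91139527-91139556, plus strand): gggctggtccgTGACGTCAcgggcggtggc

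Two-sided tests of each gene used edgeR's quasi-likelihood model over all 12 libraries, and a change was called at a Benjamini-Hochberg adjusted p (FDR) under 0.05 over all 13889 genes. Per kb of transcript, *Areg* was the most abundant ligand in the non-treated cytoplasm at 139 ± 13.3 CPM per kb (mean ± SD, n = 3 here and in the levels that follow), above *Hbegf* at 63.7 ± 1.41 and *Ereg* at 21.1 ± 6.88. *Tgfa* (10.5 ± 2.51) and *Btc* (9.52 ± 2.39) overlapped, and *Nrg1* (4.08 ± 0.188) and *Epgn* (0.0823 ± 0.0235) came last. The non-treated polysomes had *Areg* (131 ± 9.83) and *Hbegf* (56.8 ± 3.93) first, while *Ereg* (10.7 ± 3.07) overlapped *Tgfa* (9.57 ± 2.07). With N6L, *Hbegf* (87.4 ± 11.7 in the cytoplasm and 90.4 ± 16.2 in polysomes) and *Areg* (84.8 ± 7.75 and 88.3 ± 10.3) overlapped in both fractions. The overlap rests on the transcript chosen for *Hbegf*. With the union of all exons as the length, *Hbegf* with N6L had 43.0 CPM per kb in the cytoplasm and 44.4 in polysomes, below the 84.8 and 88.3 of *Areg*, and it had 31.3 in the non-treated cytoplasm.

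*Epgn* was close to absent. Its counts ran from 2 to 11 per library, and it was left out of the tests.

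**Figure D1:**
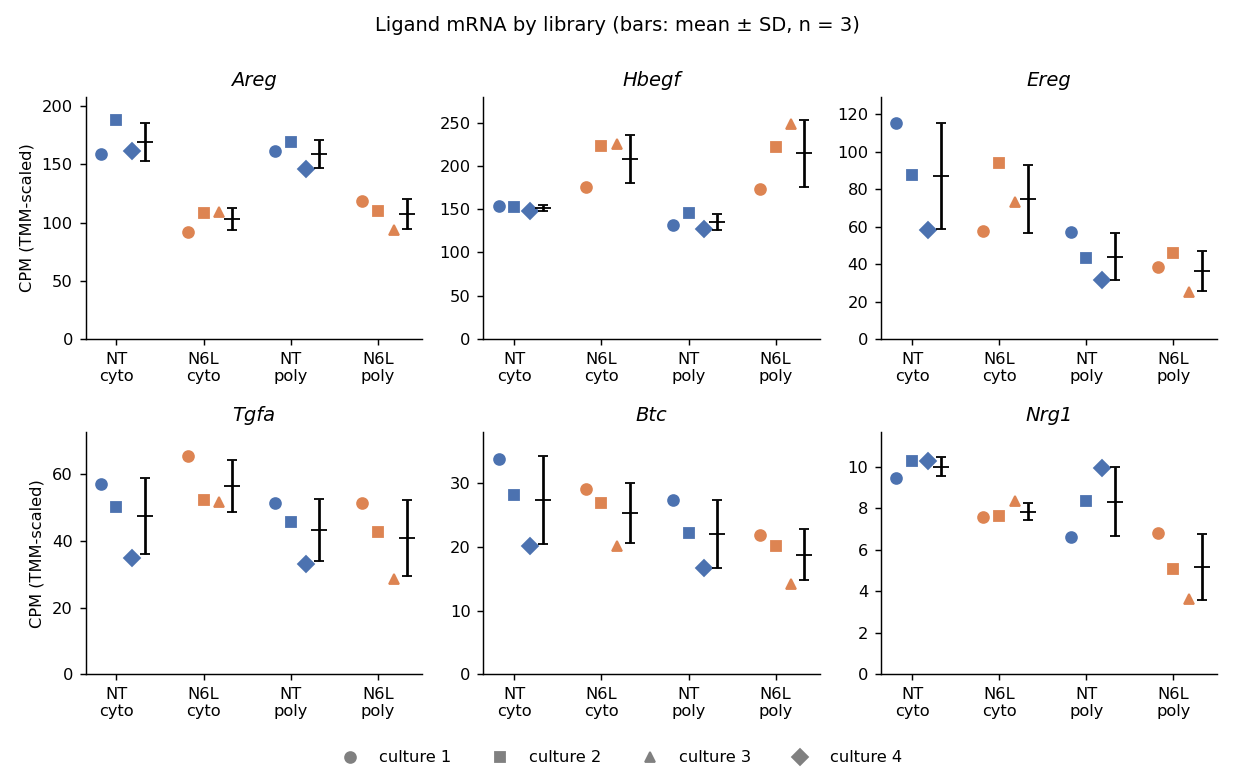
TMM-scaled CPM (vertical axes, from 0) of the 6 tested ligands in each of the 12 libraries, by group (horizontal axes: NT, non-treated; cyto, cytoplasm; poly, polysomes), with marker shape for the culture number and black bars for mean ± SD. *Areg* is lower and *Hbegf* higher with N6L in both fractions without overlap, while the groups of *Ereg*, *Tgfa* and *Btc* overlap between treatments.

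The comparison of N6L with non-treated cells asked how the antagonist changed the abundance of ligand mRNAs. *Areg* fell and *Hbegf* rose in both fractions, and the other 4 tested ligands did not pass the limit in either. In the cytoplasm, 2 of 6 tested ligands were called, where 28.3% of all tested genes were (14.5% higher and 13.8% lower), a share near that background. In polysomes 2 of 6 were called, where 9.67% of all genes were (6.01% higher and 3.66% lower). Both ligands were called in the same direction in the 2 fractions, as were 6.98% of all tested genes. Since these are bulk RNA samples, fewer cells with an mRNA and less of it per cell cannot be told apart.

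In the cytoplasm *Areg* stood at 159, 188 and 161 CPM in non-treated cultures 1, 2 and 4, and at 92.1, 108 and 109 CPM in N6L cultures 1, 2 and 3. Every N6L library was below every non-treated one. The log2 fold change was -0.72 (SE 0.146, 95% interval -1.03 to -0.40, adjusted p 0.00453), a level 0.609 times the non-treated one. This call was kept in all 17 alternative analyses, with log2 fold changes between -0.82 and -0.50.

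In polysomes *Areg* stood at 162, 169 and 146 CPM without N6L and at 118, 110 and 93.7 CPM with it, again without overlap. The log2 fold change was -0.56 (SE 0.145, 95% interval -0.88 to -0.25, adjusted p 0.0287). The direction held in all 17 alternatives but the call in 9 of them. It was lost without non-treated culture 1 (adjusted p 0.124), 2 (0.0801) or 4 (0.0510), and without N6L culture 2 (0.145) or 3 (0.0690). The call was also lost with library totals alone, with no filter on low counts and with only the groups compared.

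*Hbegf*, on chromosome 18, encodes a ligand that binds heparin, and it moved the other way. In the cytoplasm it stood at 154, 153 and 148 CPM without N6L and at 176, 223 and 225 CPM with it. The groups did not overlap, and the log2 fold change was 0.46 (SE 0.159, 95% interval 0.12 to 0.80, adjusted p 0.0445). The direction held in all 17 alternatives but the call in 7, with adjusted p up to 0.251. Without non-treated culture 1, 2 or 4 the adjusted p was 0.115, 0.0986 or 0.136, and without N6L culture 2 or 3 it was 0.251 or 0.0775.

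In polysomes *Hbegf* stood at 132, 145 and 127 CPM without N6L and at 173, 222 and 249 CPM with it. Both sets were again apart, and the log2 fold change was 0.67 (SE 0.159, 95% interval 0.33 to 1.01, adjusted p 0.0202), a 1.59-fold higher level. The call held in 11 of 17 alternatives. It was lost without non-treated culture 1 (adjusted p 0.111) or 4 (0.0640) and without N6L culture 2 (0.130) or 3 (0.0514). It was also lost with only the groups compared. The culture number as a block, which compares treatments only within numbers 1 and 2, lost it as well (0.0587).

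The balance of *Areg* and *Hbegf* can be read within a library, where no scaling between libraries enters. The ratio is one of counts and not of levels per length, so its changes and not its distance from 1 can be read. In the non-treated cytoplasm there were 1.03, 1.23 and 1.09 *Areg* counts for each *Hbegf* count in cultures 1, 2 and 4. With N6L the ratio was 0.525, 0.486 and 0.483 in cultures 1, 2 and 3. In non-treated polysomes it was 1.23, 1.16 and 1.14, and in N6L polysomes it was 0.684, 0.495 and 0.377. Each of the 6 non-treated libraries thus had a higher ratio than each of the 6 N6L libraries. This ratio was looked at after the changes of both genes were known and is given as a description, with no test.

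**Figure D2:**
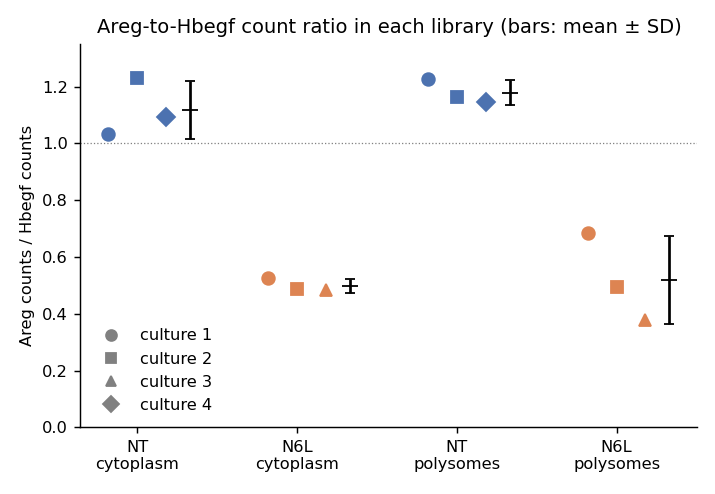
*Areg* counts divided by *Hbegf* counts (vertical axis, from 0) in each library, by group, with marker shape for the culture number, bars for mean ± SD (n = 3) and a dotted line at equal counts. The 6 non-treated libraries lie between 1.03 and 1.23, and the 6 N6L libraries lie between 0.377 and 0.684.

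Of the summed CPM of the 7 ligands, *Hbegf* made up 29.1 to 34.1% in the non-treated cytoplasm and 41.1 to 46.2% with N6L. *Areg* made up 30.1 to 37.3% and 21.1 to 22.3%. In polysomes the share of *Hbegf* was 30.2 to 34.9% without N6L and 42.2 to 60.1% with it. The summed level itself overlapped between treatments, at 432 to 528 CPM without N6L and 428 to 512 CPM with it in the cytoplasm, and at 364 to 436 CPM and 410 to 446 CPM in polysomes. These shares are descriptions of the same values.

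*Nrg1* was the nearest of the other ligands to the limit. Its cytoplasmic levels of 9.46, 10.3 and 10.3 CPM without N6L and 7.57, 7.61 and 8.33 CPM with it did not overlap, yet the log2 fold change of -0.35 (SE 0.215) had an adjusted p of 0.228. Non-overlapping groups were found for 3 of 6 ligands in the cytoplasm, where 54.9% of all tested genes had them. In polysomes *Nrg1* stood at 6.63, 8.35 and 9.94 CPM without N6L and at 6.80, 5.06 and 3.64 CPM with it, which overlap through N6L culture 1. The log2 fold change was -0.69 (SE 0.219, 95% interval -1.16 to -0.22, adjusted p 0.0639). It passed the limit without N6L culture 1 (-0.94, adjusted p 0.0234), in DESeq2 (adjusted p 0.0221) and with offsets for length and GC content (0.0148). In polysomes 2 of 6 ligands had groups without overlap, where 25.6% of all tested genes did.

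In *Ereg*, *Tgfa* and *Btc* the SD over the non-treated cultures was larger than the difference between the treatment means, in both fractions. Cytoplasmic *Ereg* stood at 115, 87.3 and 58.3 CPM in non-treated cultures 1, 2 and 4 and at 57.6, 93.9 and 72.9 CPM with N6L, and its log2 fold change was -0.22 (SE 0.287, adjusted p 0.588). *Tgfa* stood at 56.9, 50.3 and 34.8 CPM and at 65.4, 52.3 and 51.8 CPM, with a log2 fold change of 0.25 (SE 0.238, adjusted p 0.435). *Btc* stood at 33.8, 28.1 and 20.1 CPM and at 29.1, 26.9 and 20.1 CPM, with a log2 fold change of -0.11 (SE 0.239, adjusted p 0.744). In all 3 genes non-treated culture 1 was the highest and culture 4 the lowest of the non-treated cultures, in the cytoplasm and in polysomes alike. The *Ereg* estimate rested on that spread, since it was 0.038 without non-treated culture 1. It was -0.47 (adjusted p 0.0213) with the culture number as a block and -0.50 (adjusted p 0.0406) with offsets for length and GC content. That block compares treatments only within numbers 1 and 2. *Ereg* stood there at 115 CPM without and 57.6 CPM with N6L, and at 87.3 and 93.9 CPM. Whether equal numbers share a batch is not given in the sources used here. In polysomes the log2 fold changes were -0.27 (SE 0.289) for *Ereg*, -0.083 (SE 0.238) for *Tgfa* and -0.23 (SE 0.241) for *Btc*, with adjusted p of 0.592, 0.858 and 0.578.

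**Figure D3:**
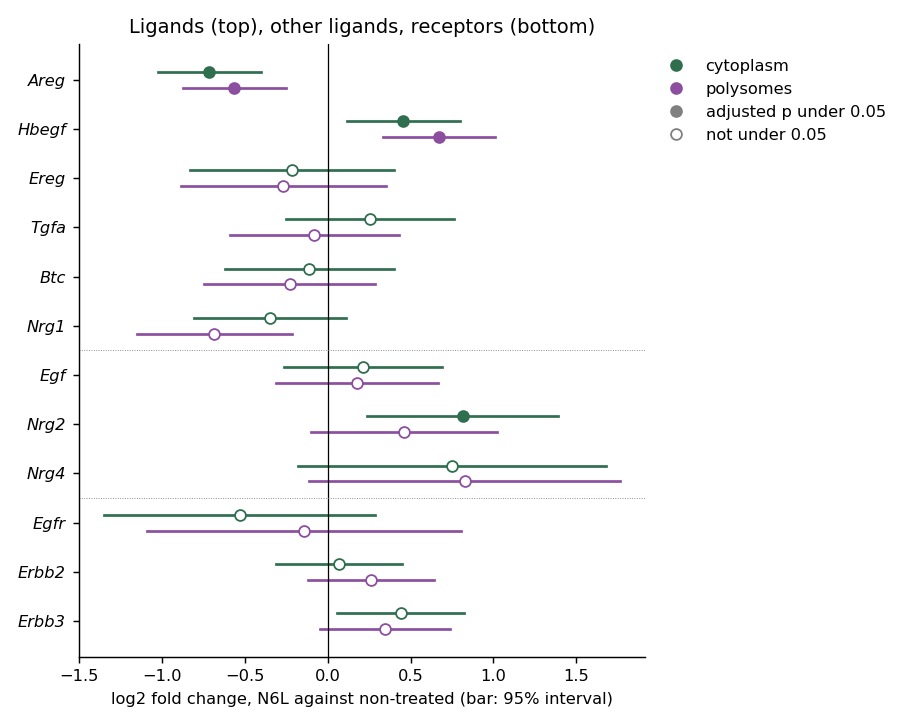
Log2 fold change of N6L against non-treated (horizontal axis) with its 95% interval for the 6 tested ligands (top), 3 other ligands of the family (middle) and 3 receptors (bottom), in the cytoplasm (green) and in polysomes (purple), filled where the adjusted p is under 0.05. *Areg* lies at -0.72 and -0.56 and *Hbegf* at 0.46 and 0.67, whereas no receptor is filled.

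The comparison of polysomes with cytoplasm asked how strongly each mRNA was represented on polysomes. *Ereg* had the lowest ratio of the ligands in both treatments, except that with offsets for length and GC content *Nrg1* was lower with N6L (-0.64 against -0.22), and in N6L cells its polysome level was 0.487 times the cytoplasmic one. Without N6L its polysome levels were 56.9, 43.3 and 31.6 CPM in cultures 1, 2 and 4, below the cytoplasmic 115, 87.3 and 58.3 CPM of the same cultures. Per culture the log2 ratio was -1.02, -1.01 and -0.88, and with N6L it was -0.59, -1.03 and -1.55 in cultures 1, 2 and 3. Within each culture the polysome level of *Ereg* was therefore the lower one, in 6 of 6 cultures. This was not particular to *Ereg*. The ratios of *Tgfa* (-0.86 to -0.077), *Btc* (-0.49 to -0.26) and *Nrg1* (-1.18 to -0.046) were also below 0 in every culture.

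In non-treated cells edgeR called 0 of 6 ligands, with 1 (*Ereg*) at an unadjusted p under 0.05 and 0 called by DESeq2, where 0.209% of all tested genes were called. *Ereg* had a log2 fold change of -0.99 (SE 0.29, adjusted p 0.184), which passed the limit once both libraries of a culture were paired by a culture block (-0.97, adjusted p 0.0402). With N6L, 2 of 6 ligands were called, *Ereg* and *Nrg1*, both lower in polysomes, where 39.0% of all tested genes were called (18.4% higher and 20.6% lower). *Ereg* had -1.04 (SE 0.291, adjusted p 0.0143). Without N6L culture 2 or 3 the adjusted p was 0.0655 or 0.102.

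*Ereg* has a long transcript (4128 bases) with a GC content of 39.2%, below that of all but 2.71% of tested coding genes. With offsets for length and GC content its ratio was -0.22 with N6L (adjusted p 0.406) and -0.44 without (adjusted p 0.272). With these offsets and the culture block together the values were -0.21 (adjusted p 0.0793) and -0.43 (adjusted p 0.0249).

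*Nrg1* was lower in polysomes of N6L cells by -0.60 on the log2 scale (SE 0.218, adjusted p 0.0430). Its per-culture ratios were -0.15, -0.58 and -1.18 with N6L and -0.51, -0.29 and -0.046 without. The call was lost without non-treated culture 1 (adjusted p 0.0551) or 2 (0.0712) and without N6L culture 2 (0.165) or 3 (-0.35, adjusted p 0.307). Without a culture block 39.0% of all tested genes were called in this comparison, and their share with the block is not given here. The 4 of 6 ligands called lower in N6L polysomes with the culture block therefore have no background beside them. The added ones were *Tgfa* (-0.50, adjusted p 0.0115) and *Btc* (-0.44, adjusted p 0.00819). With the length and GC offsets beside the block these were -0.18 (adjusted p 0.135) and 0.087 (adjusted p 0.561), while *Nrg1* was the 1 ligand of 6 still called.

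*Areg* and *Hbegf* were near parity. *Areg* had a log2 ratio of -0.093 (SE 0.145, 95% interval -0.40 to 0.22) without N6L and 0.059 (SE 0.145, 95% interval -0.25 to 0.37) with it. *Hbegf* had -0.17 (SE 0.158) and 0.047 (SE 0.158). Neither passed the limit in either treatment.

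**Figure D4:**
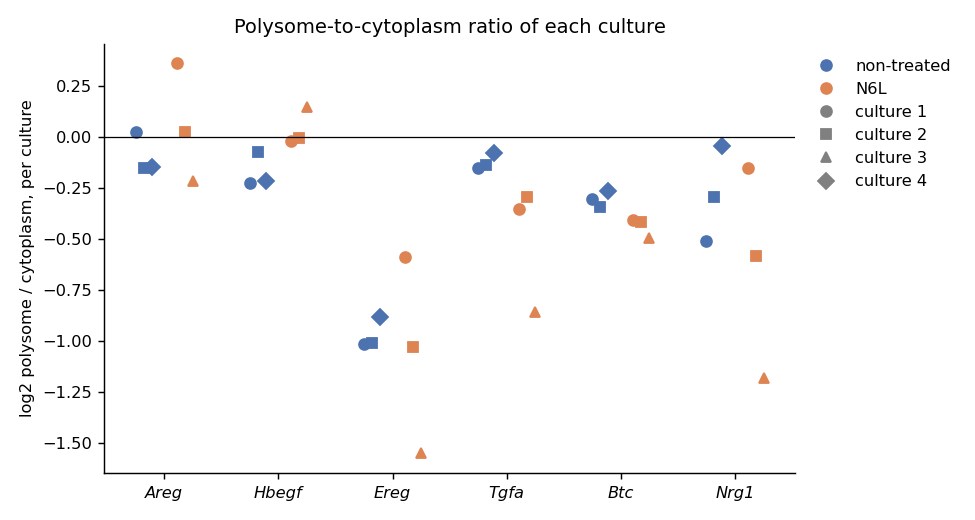
Log2 of polysome over cytoplasm CPM (vertical axis, TMM-scaled, prior count 2) of each ligand in each culture, non-treated in blue and N6L in orange, with marker shape for the culture number. *Ereg* lies below 0 in all 6 cultures (-1.55 to -0.59), as do *Tgfa*, *Btc* and *Nrg1*. N6L culture 3 gives the lowest N6L value in 5 of the 6 ligands and the highest in *Hbegf*.

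The translational index, the N6L ratio of polysomes to cytoplasm over the non-treated one, asked whether N6L changed polysome loading. edgeR called 0 of 6 ligands, with 0 at an unadjusted p under 0.05 and 0 by DESeq2, and 0.00% of all tested genes were called, with 1074 genes at an unadjusted p under 0.05. Log2 indices ran from -0.34 (SE 0.306, 95% interval -0.99 to 0.32) for *Nrg1* and -0.34 (SE 0.336) for *Tgfa* to 0.21 (SE 0.224, 95% interval -0.26 to 0.69) for *Hbegf*.

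Taken per culture, the N6L ratios of *Hbegf* (-0.021, -0.0035 and 0.15) were all above the non-treated ones (-0.22, -0.071 and -0.21). Those of *Tgfa* (-0.35, -0.29 and -0.86) were all below the non-treated ones (-0.15, -0.14 and -0.077), as were those of *Btc* (-0.41, -0.42 and -0.49 against -0.30, -0.34 and -0.26). The exact two-sided permutation p was 0.1 for each of the 3, the smallest that 3 against 3 cultures allow. Groups without overlap were found for 3 of 6 ligands, where 29.7% of all tested genes had them. *Areg*, *Ereg* and *Nrg1* overlapped, with exact p of 0.7, 0.7 and 0.4.

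Of the other ligands of the family, *Nrg2*, a neuregulin, rose in the cytoplasm from 2.50 to 3.61 CPM to 4.97 to 5.55 CPM. Its log2 fold change was 0.81 (SE 0.27, adjusted p 0.0370) there and 0.46 (SE 0.263, adjusted p 0.286) in polysomes, and the cytoplasmic call held in 11 of 17 alternatives. It was lost without non-treated culture 1 (adjusted p 0.111) or 2 (0.0841) and without N6L culture 1 (0.0732), 2 (0.109) or 3 (0.0649). The call was also lost with technical replicate a alone. *Egf*, the founding member, was near 3 CPM in all groups, with log2 fold changes of 0.21 (adjusted p 0.490) and 0.17 (adjusted p 0.671). *Nrg4* had group means of 0.613 to 1.10 CPM, with 0.75 (adjusted p 0.201) and 0.83 (adjusted p 0.248). *Nrg3* was seen as 1 count in each of 2 libraries.

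Per kb of transcript the receptors were far below *Areg* and *Hbegf*, with group means of 0.0518 to 0.151 CPM per kb for *Egfr*, 2.96 to 3.72 for *Erbb2* and 0.737 to 1.26 for *Erbb3*. As CPM, *Egfr* had group means of 0.529 to 1.54 CPM, and *Erbb4* had 0 of 354468845 counts over all libraries, which allows a level of up to 0.00846 CPM for counting error only. *Erbb2*, the co-receptor without a ligand of its own, had group means of 14.8 to 18.7 CPM, and *Erbb3*, the neuregulin receptor, of 4.44 to 7.58 CPM. edgeR and DESeq2 called 0 of 3 tested receptors in either fraction, with 1 at an unadjusted p under 0.05 in the cytoplasm and 0 in polysomes. Among the alternatives, cytoplasmic *Erbb3* was called higher in 2 of 17, with library totals and with the culture number block. Cytoplasmic *Egfr* was called lower in 1 of 16, with length and GC offsets. In the main fit the log2 fold changes were -0.53 (SE 0.382) and -0.14 (SE 0.443) for *Egfr*, 0.065 (SE 0.178) and 0.26 (SE 0.178) for *Erbb2* and 0.44 (SE 0.18, adjusted p 0.0782) and 0.34 (SE 0.183, adjusted p 0.249) for *Erbb3*, in the cytoplasm and in polysomes.

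Among 14 genes of ligand shedding, 12 were tested, and 1 rose and 1 fell in each fraction. Of all tested genes, 28.3% were called in the cytoplasm and 9.67% in polysomes. *Adam8*, a metalloprotease of low level here (2.15 ± 0.145 CPM in the non-treated cytoplasm and 1.04 ± 0.0549 CPM with N6L, n = 3), fell by 1.05 (SE 0.265, adjusted p 0.0120) in the cytoplasm and by 1.11 (SE 0.278, adjusted p 0.0255) in polysomes on the log2 scale. *Adam17*, the main sheddase of *Areg*, *Tgfa* and *Hbegf* products, rose in the cytoplasm (0.50, SE 0.176, adjusted p 0.0448), a call kept in 6 of 17 alternatives, and had 0.27 (adjusted p 0.360) in polysomes. *Rhbdf2*, the iRhom that carries ADAM17 to the surface, rose in polysomes (0.75, SE 0.192, adjusted p 0.0283) and had 0.46 (adjusted p 0.0820) in the cytoplasm. The median log2 fold change of the 12 was 0.0099 in the cytoplasm and 0.13 in polysomes, beside 0.042 and 0.00081 over all tested genes. Of the fits with a culture left out, that without N6L culture 2 had the fewest calls over all tested genes in both fractions (counts in the closing section). Without N6L culture 2, 0 of the 12 were called in either fraction by edgeR, and in polysomes the count was also 0 without non-treated culture 1 or 4 or N6L culture 3. *Adam8* then had adjusted p of 0.0586 in the cytoplasm and 0.0788 to 0.112 in polysomes.

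Of 15 negative regulators of ErbB receptors, 5 rose and 0 fell in the cytoplasm, and 2 rose and 1 fell in polysomes. Among all tested genes 28.3% were called in the cytoplasm (14.5% higher and 13.8% lower) and 9.67% in polysomes (6.01% higher and 3.66% lower). The list's share of calls in the cytoplasm was near the 28.3% of both directions. All 5 of its calls were higher in the main fit, but some alternatives also called genes lower. There were 6 higher and 1 lower with DESeq2, 5 and 1 with RLE factors, and 3 and 1 with offsets. Counts were 7 and 1 without N6L culture 3, 6 and 2 with the culture number block, and 8 and 2 with only the groups compared. The remaining alternatives called none lower. *Errfi1* (Mig6, a direct inhibitor of EGFR kinase) went from 239 ± 59.5 to 530 ± 56.7 CPM in the cytoplasm, a log2 fold change of 1.15 (SE 0.21, adjusted p 0.00282), and had 0.97 (adjusted p 0.0132) in polysomes. *Socs5*, a suppressor of cytokine signalling that also lowers EGFR, rose by 0.94 (adjusted p 0.00722) and 0.76 (adjusted p 0.0376). In the cytoplasm the ubiquitin ligase *Cblb* rose by 0.98 (adjusted p 0.0114), and the membrane proteins *Lrig3* and *Lrig2* by 0.57 (adjusted p 0.0193) and 0.52 (adjusted p 0.0377), the latter turning to -0.022 with length and GC offsets. *Sh3kbp1*, which links CBL to receptor uptake, fell in polysomes by 0.79 (adjusted p 0.0476). The list's median was 0.47 in the cytoplasm and 0.16 in polysomes. Leaving out N6L culture 2 also lowered the calls over all tested genes the most in both fractions, as given in the closing section. Without it, 1 gene (*Errfi1*) of the list rose in the cytoplasm and 0 were called in polysomes by edgeR, where *Errfi1* had 0.87 (adjusted p 0.109). With 1 of the other cultures left out, 3 to 7 rose in the cytoplasm. In polysomes 0 were called without non-treated culture 1, 1 rose without non-treated culture 2 or 4 or N6L culture 1, and 3 rose without N6L culture 3. The polysome call of *Socs5* was lost without each culture (adjusted p 0.0594 to 0.19) other than N6L culture 3, and that of *Sh3kbp1* without each (0.0588 to 0.189) other than N6L culture 1.

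Of 11 adaptors, 2 rose in each fraction (*Gab1* and *Crk* in the cytoplasm, *Gab1* and *Shc1* in polysomes) and 0 fell, where 14.5% of all tested genes were called higher in the cytoplasm and 6.01% in polysomes. *Gab1*, a docking protein of receptor kinases, had log2 fold changes of 1.27 (SE 0.32, adjusted p 0.0120) and 1.11 (SE 0.331, adjusted p 0.0488). Of 15 genes induced downstream of ERK, 6 rose and 0 fell in each fraction, *Egr1*, *Fos*, *Ier3*, *Dusp4*, *Dusp5* and *Spry4* in both, against the same 14.5% and 6.01% of all tested genes. The lists were chosen with earlier results of these data known, so their counts beside these shares are a description and no test. The transcription factor *Egr1* went from 1021 ± 344 to 3295 ± 156 CPM in the cytoplasm (1.69, adjusted p 0.00208) and *Fos* from 232 ± 46.3 to 611 ± 64.4 CPM (1.40, adjusted p 0.000982). The phosphatases of MAP kinases *Dusp4* and *Dusp5* had 1.76 (adjusted p 0.00179) and 0.78 (adjusted p 0.00923), and the early-response gene *Ier3* had 1.16 (adjusted p 0.00550). The remaining 9, *Etv4*, *Etv5*, *Fosl1* and *Myc* among them, did not pass the limit in either fraction. Calls over all tested genes also fell without N6L culture 2, to the lowest counts of any culture left out, as given in the closing section. In that fit 4 of the ERK-induced genes rose in the cytoplasm and 2 (*Fos* and *Ier3*) in polysomes, and 0 adaptors were called in either fraction. In polysomes the adaptor count was also 0 without N6L culture 3 or non-treated culture 1, 2 or 4. Without N6L culture 2 *Egr1* had 1.47 (adjusted p 0.0575) and *Gab1* 0.96 (adjusted p 0.224) in polysomes. With 1 of the other cultures left out, 5 to 6 of the ERK-induced genes rose in the cytoplasm and 4 to 5 in polysomes. Of 17 alternatives, *Spry4* kept its call in 12 in the cytoplasm and 10 in polysomes, and *Dusp4* in 17 and 13. *Fos* and *Ier3* kept theirs in all 17 in both fractions. The polysome call of *Spry4* was lost without each culture (adjusted p 0.0538 to 0.247) other than N6L culture 1. Medians were 0.55 and 0.12 for the adaptors and 0.47 and 0.44 for the ERK-induced genes.

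**Figure D5:**
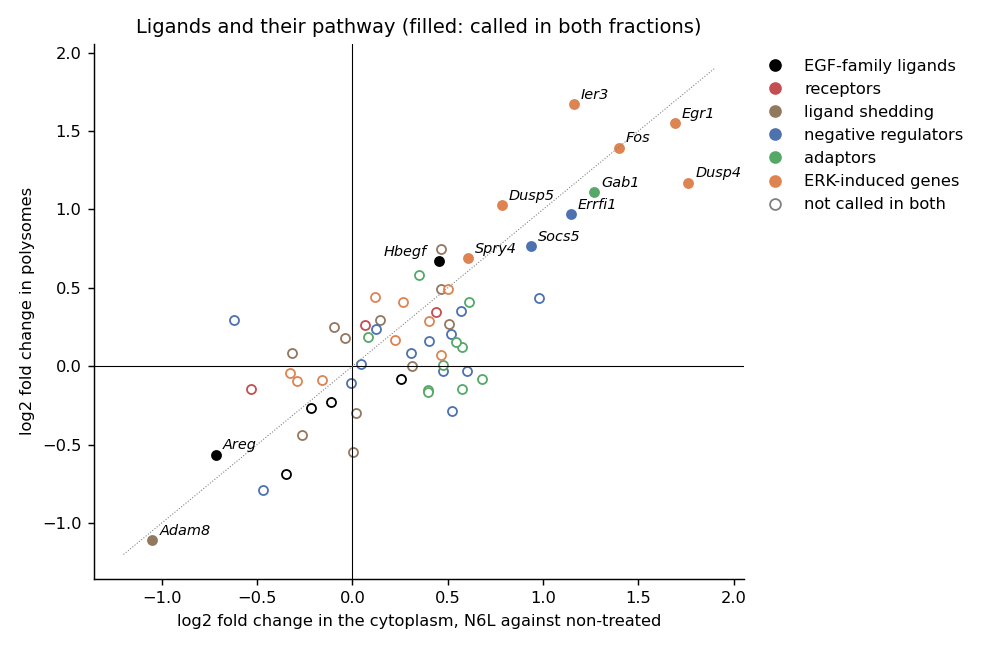
Log2 fold change of N6L against non-treated in the cytoplasm (horizontal axis) and in polysomes (vertical axis) for the tested ligands, receptors and 4 pathway lists, coloured by list, filled and named where called in both fractions, with a dotted line of equal change. Of the named genes, *Areg* and *Adam8* lie in the lower left, and *Hbegf* lies in the upper right with *Errfi1*, *Socs5*, *Gab1* and 6 ERK-induced genes.

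Each ligand was finally set beside the genes whose levels followed it most closely over the 12 libraries, by Pearson's r of log2 CPM among 11866 genes of at least 1 CPM on average. This is a description, and the points share cultures and treatments. *Hbegf* had the highest r, 0.986 with *Sdc4* (syndecan 4, a heparan sulfate proteoglycan) and 0.983 with *Ccn2* (connective tissue growth factor). *Sdc4* had a median of 107 CPM in the non-treated cytoplasm and 210 CPM with N6L, and *Ccn2* had 72.6 and 173 CPM. *Areg* was closest to *Snhg5*, a noncoding snoRNA host gene (0.963, medians of 217 and 111 CPM), and *Prmt3*, an arginine methyltransferase (0.958, medians of 87.0 and 67.0 CPM). *Ereg* was closest to the interferon-inducible *Ifi202b* (0.971) and the deubiquitinase *Yod1* (0.966). *Nrg1* was closest to *Sptlc2* (0.970), of sphingolipid synthesis, and *Pop1* (0.955), a subunit of RNase P. *Tgfa* was closest to *Rbbp5* (0.974) and *Gk* (0.972), and *Btc* to *Zbtb18* (0.960) and *Spopl* (0.959).

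Between the ligands themselves, *Tgfa* and *Btc* had an r of 0.870 and *Ereg* and *Btc* of 0.829 over the 12 libraries, whereas *Areg* and *Hbegf* had -0.80. *Areg* and its chromosome 5 neighbours *Ereg* and *Btc* had only 0.298 and 0.313.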

How the data were processed

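Poly(A)+ RNA of the cytoplasm and of pooled polysomes was sequenced from stranded libraries. The authors aligned reads with STAR to mm10 (per the labels) and deposited raw counts per gene from HTSeq 0.5.3, with no normalization, for 4 technical replicates of each of 12 libraries (48 files). Strand setting, annotation release and multiply mapped reads: not given in the sources used here. Samples were grouped by their labels. For the cytoplasm of N6L culture 2, title and description disagree on the culture in 3 technical replicates, and the title was followed. Whether the cultures were grown independently is not stated, so p-values measure the spread between these samples, which may be technical.

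Technical replicates were summed. Genes were matched to GENCODE vM21 (50376 of 50600) and 0 entries named no gene. Of all genes, 13889 passed filterByExpr. With TMM scaling, glmQLFit and glmQLFTest of edgeR 4.0.16 (R 4.3.3) took the counts as 4 group means without a block. Benjamini-Hochberg adjustment ran over all tested genes. The comparisons were N6L against non-treated in each fraction, polysomes against cytoplasm in each treatment, and the difference of the latter as 1 contrast. CPM are relative to all counted mRNA of a library, so a change in the total amount of polysomal mRNA is not seen. Levels between genes are per kb of the representative GENCODE transcript (APPRIS principal, then longest). Ratios per culture used a prior count of 2 and an exact permutation test. Depth is the total count per library, and limits cover counting error only.

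Alternatives were RLE factors, library totals, DESeq2 1.42.0, no filter, a minimum of 10 counts per library, technical replicate a alone, the conflicting replicates left out, only the groups compared, each culture left out, replicate blocks (limma 3.58.1 for the random one) and offsets for length and GC content. The block by culture number compares treatments only within numbers 1 and 2, which both treatments have. Whether equal numbers share a batch is not given in the sources used here. The exon union as length and the *Areg*-to-*Hbegf* ratio were chosen after seeing the data. The cytoplasm and polysomes of a culture come from 1 lysate, by the study's methods, and their deviations from the group means correlated at 0.364, 0.452 and 0.645 in non-treated cultures 1, 2 and 4 and at 0.0368, 0.199 and 0.229 in N6L cultures 1, 2 and 3. The fit was also run on simulated counts, drawn for each library independently and with no culture effect. That run cannot show how the fit fares where the libraries of a culture correlate.

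The members and the lists were chosen with earlier results of these data known. All 7 ligands were named, with the receptors and other ligands, up to 6 genes of each further list past the limit, and the 2 genes most correlated with each ligand. *Spry4*, *Crk* and *Shc1* and the genes named as not called were chosen after their values were seen.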

Additional observations from a re-analysis of the deposited data

How the results depend on the processing

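Of 504 values of the 6 tested ligands under an alternative, 432 kept direction and side of the limit, 11 passed it anew, 36 lost it and 25 turned direction, none of the last being called in either analysis. The cytoplasmic count of 2 called ligands was 1 with RLE factors, with no filter and with technical replicate a alone, 3 with only the groups compared (*Nrg1* added), and 1 to 2 with a culture left out. It stayed 2 with the culture number as replicate block and with offsets, where *Ereg* took the place of *Hbegf*. The block by culture number compares treatments only within numbers 1 and 2. In polysomes 2 became 1 with library totals, with no filter and with the culture number as replicate block, 0 with only the groups compared, 3 (*Nrg1* added) with DESeq2 and with offsets, and 0 to 3 with a culture left out. For polysomes against cytoplasm without N6L, 0 became 1 (*Ereg*) with no filter, with the culture as replicate block and with offsets and block together. With N6L, 2 became 1 with RLE factors, replicate a alone, the conflicting replicates left out, only the groups compared, and the offsets with or without the block (*Nrg1* in these), 4 with the culture block, and 0 to 2 with a culture left out. The culture as a random block, fitted for N6L against non-treated only, changed no call of a ligand in either fraction. The index had 0 called ligands throughout.

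Directions turned as follows on the log2 scale, and the cause was not tested. With library totals, which moved the median of all genes from 0.042 to 0.19 in the cytoplasm and from 0.025 to -0.11 for the N6L ratio, *Btc* was at 0.025 in the cytoplasm, *Tgfa* at 0.0080 in polysomes, and the N6L ratio of *Areg* and *Hbegf* at -0.068 and -0.095. With length and GC offsets, cytoplasmic *Tgfa* was at -0.094, the ratio of *Btc* at 0.058 without and 0.074 with N6L, that of *Areg* at -0.19, and the index of *Ereg* and *Btc* at 0.22 and 0.016. With offsets and culture block the ratios were 0.065 and 0.087 for *Btc* and -0.20 for *Areg*, and the indices 0.22 and 0.022. With replicate a alone the *Ereg* index was 0.024. With a culture left out, *Ereg* ran from -0.47 to 0.038 and *Btc* from -0.32 to 0.070 in the cytoplasm, *Tgfa* from -0.28 to 0.12 in polysomes, the N6L ratio of *Areg* from -0.091 to 0.19 and of *Hbegf* from -0.010 to 0.097, and the *Ereg* index from -0.25 to 0.14.

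Counts over all genes moved more. In polysomes 1343 became 2034 with DESeq2, 895 with replicate a alone, 328 with only the groups compared, 2978 with offsets and 146 (without N6L culture 2) to 1579 with a culture left out. In the cytoplasm 3935 became 1295 (without N6L culture 2) to 4042. For polysomes against cytoplasm with N6L, 5415 became 2376 with offsets and 1153 to 5861 with a culture left out. Without N6L, 29 became 647 with no filter, 273 with DESeq2, 18 with replicate a alone, 139 with only the groups compared, 203 with the culture block, 55 with offsets, 565 with both, and 0 to 335 with a culture left out. For the index, 0 became 114 with no filter, 1 with offsets and block and 0 to 1 with a culture left out.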
